A study of Mus musculus with 15 samples.

Results

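Macrophages and monocytes are leukocytes of the mononuclear phagocyte lineage, and 34 genes that mark them were followed in isolated heart muscle cells of mice exposed to protons. The genes were taken by symbol from the array's annotation, using probe sets that name a single gene, and each gene was read from 1 probe set. All 34 were on the array, out of 19937 genes that could be named in this way. The samples were left ventricular cardiomyocytes of adult male C57Bl/6NT (Taconic) mice, 8 to 9 months old, given whole-body 1 GeV protons at 90 cGy or a sham exposure. The titles give cells 1, 3, 5, 12 and 26 days after protons, on 2, 3, 3, 2 and 2 arrays, and sham cells at day 1 (2 arrays) and day 3 (1 array). The series' design text lists days 7, 14 and 28 in place of the last 3; title days are kept here. The sham arrays were used together as 1 group of 3. Days 5, 12 and 26 are thus compared with sham cells of earlier days, and all 5 comparisons share the same sham samples. Nothing in the labels ties an array to a mouse, so the p-values measure only the spread between these samples, which may be technical.

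The heart holds macrophages settled among its muscle cells, and myocyte preparations can carry some of them along. Macrophages depend on the growth factor receptor Csf1r and on the transcription factor Spi1 (PU.1), which acts at many macrophage genes. Heart macrophages are commonly divided into a resident population that renews itself in place, marked by Lyve1, Timd4 and Folr2, and cells recruited from blood monocytes through the chemokine receptor Ccr2. The cells were freed with collagenase through the aorta and selected over a calcium gradient. Per the labels this gave over 90% calcium-tolerant cardiomyocytes, with inflammatory or endothelial cells as a possible small remainder. In such a bulk preparation, more cells of a type and more RNA per cell cannot be told apart.

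Signals are the deposited log2 values, on which 1 unit is a doubling. Array medians lay between 4.90 and 5.16. On day 5 after protons, replicates 1 and 2 were nearly the same: the SD of their differences over the genes tested was 0.0768, against 0.222 to 0.527 for the other of 105 pairs of arrays. They were averaged and counted as 1 sample, which leaves 14 samples. Of the 34 genes, 32 had a mean signal above 5.00, the median of all probe sets, and entered the limma fit with 12102 genes in all; Aif1, a cytoskeletal protein of microglia and macrophages, had a mean of 4.46 and Ccr2 a mean of 4.64, and both are given as values without a test. The 11 cardiomyocyte genes looked at, among them Myh6 and Tnnt2, all passed that filter. Their mean deviation from the average of the 14 samples stayed between -0.07 and 0.07 in every sample.

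The sequences just before the start of 4 of the genes are shown because the PU.1 core is the letter pattern most tied to this lineage. The windows are 250 bases before the annotated start, from RefSeq on GRCm38.p6, written 5′ to 3′ on the gene's strand. Capitals mark AGGAAGT or its reverse complement. In Lyz2, lysozyme, chr10:117282273-117282522 on the minus strand holds 1 match. In Folr2, a folate receptor of resident macrophages, chr7:101857191-101857440 on the minus strand holds 2 matches. The window of another Folr2 start, chr7:101845332-101845581, holds none and is not printed. In Fcgr1, the high-affinity IgG receptor, chr3:96293970-96294219 on the minus strand holds 1 match. Coro1a, the leukocyte actin regulator coronin 1A, is printed beside them because it had the smallest adjusted p of the 32 genes; chr7:126704817-126705066 on the minus strand holds none.
Lyz2: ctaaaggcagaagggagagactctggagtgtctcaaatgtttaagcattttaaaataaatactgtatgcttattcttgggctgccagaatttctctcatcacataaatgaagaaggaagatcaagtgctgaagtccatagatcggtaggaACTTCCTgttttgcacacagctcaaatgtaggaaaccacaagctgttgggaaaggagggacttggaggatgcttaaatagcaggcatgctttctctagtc
Folr2: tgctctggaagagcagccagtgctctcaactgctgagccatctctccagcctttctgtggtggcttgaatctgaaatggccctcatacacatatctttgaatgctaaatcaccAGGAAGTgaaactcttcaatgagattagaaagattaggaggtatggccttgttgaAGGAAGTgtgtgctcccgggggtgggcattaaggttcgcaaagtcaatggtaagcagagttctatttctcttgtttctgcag
Fcgr1: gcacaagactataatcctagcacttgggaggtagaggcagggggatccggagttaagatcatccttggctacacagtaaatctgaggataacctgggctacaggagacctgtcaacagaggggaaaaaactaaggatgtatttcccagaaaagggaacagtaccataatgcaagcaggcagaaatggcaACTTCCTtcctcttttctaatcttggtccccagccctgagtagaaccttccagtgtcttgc
Coro1a: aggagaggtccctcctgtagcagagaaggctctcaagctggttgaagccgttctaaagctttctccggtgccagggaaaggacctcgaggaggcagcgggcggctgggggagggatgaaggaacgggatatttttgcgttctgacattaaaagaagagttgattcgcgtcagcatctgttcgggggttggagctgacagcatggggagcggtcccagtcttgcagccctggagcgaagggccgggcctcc

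RefSeq promoter windows were found for 27 of the 34 genes, 34 windows in all since some genes have more than 1 start. AGGAAGT, searched on both strands, was in 9 of the 34 windows, belonging to 8 genes: Lyz2, Folr2, Mrc1, F13a1, Pf4, Ms4a6c, Fcgr1 and Ptprc. It was in 7.69% of all 32851 windows of that length. The C/EBP pattern TTGCNNAA was in 4 windows, of Cd68, Pf4 and Fcgr3, against 9.56% of all windows. Some windows are not separate: those of Ptprc overlap and share an AGGAAGT match, and those of Fcgr3 overlap and share their C/EBP match. A match is only a run of letters, and these counts say nothing about binding.

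After protons none of the 32 genes tested passed an adjusted p of 0.05 in limma on any day against sham, between late and early days, or in either joint test. The main feature of their values was the spread between samples of the same group. Their median residual SD in the fit was 0.573, from 0.174 for Coro1a to 0.905 for Timd4, while the median of all genes tested was 0.165. Only 2.25% of all genes had a residual SD above the macrophage genes' median. This spread was shared: 89.9% of the residual variance of the 32 genes lay on 1 component, against 51.8% for all genes. Short lists of other cell types were not measured in this way.

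Csf1r, the receptor for the macrophage growth factor CSF1, shows the pattern in its log2 signals. The sham samples read 6.99, 6.95 and 6.65. After protons the values were 7.20 and 7.65 on day 1, 5.95, 6.09 and 7.53 on day 3, 6.97 and 6.84 on day 5, 6.64 and 7.93 on day 12, and 7.61 and 7.18 on day 26. Replicate 3 of day 3 and replicate 2 of day 12 were high while their group mates were low, and both day 3 and day 12 straddled the sham values. On days 1 and 26 both samples lay above all 3 sham samples. The differences from sham in the limma fit were 0.56 ± 0.434 (SE) on day 1 and 0.53 ± 0.434 on day 26, with adjusted p of 0.756 and 0.576.

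Across the 34 genes the same samples stood apart. Replicate 2 of day 12 was above replicate 1 in 33 of 34 genes, by a median of 1.16 on the log2 scale, or 2.23-fold; over all genes tested the median gap of these arrays was 0.01. On day 3 replicate 3 was above replicate 1 in 32 of 34 genes, by a median of 1.52 (2.86-fold), and above replicate 2 in 33 of 34. On day 1 replicate 2 was above replicate 1 in 31 of 34 genes, by 0.61. The single day 3 sham sample was below replicate 1 of the day 1 sham in 31 of 34 genes, by a median log2 gap of -0.47, whereas the 2 day 1 sham samples split 19 to 15. The 2 samples of day 5 were even, 17 to 17. Most genes peaked in 1 of 3 samples: day 12 replicate 2 held the highest value of 14 genes, day 1 replicate 2 of 11 and day 3 replicate 3 of 5. The lowest value of 24 genes was in day 3 replicate 1.

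**Figure D1:**
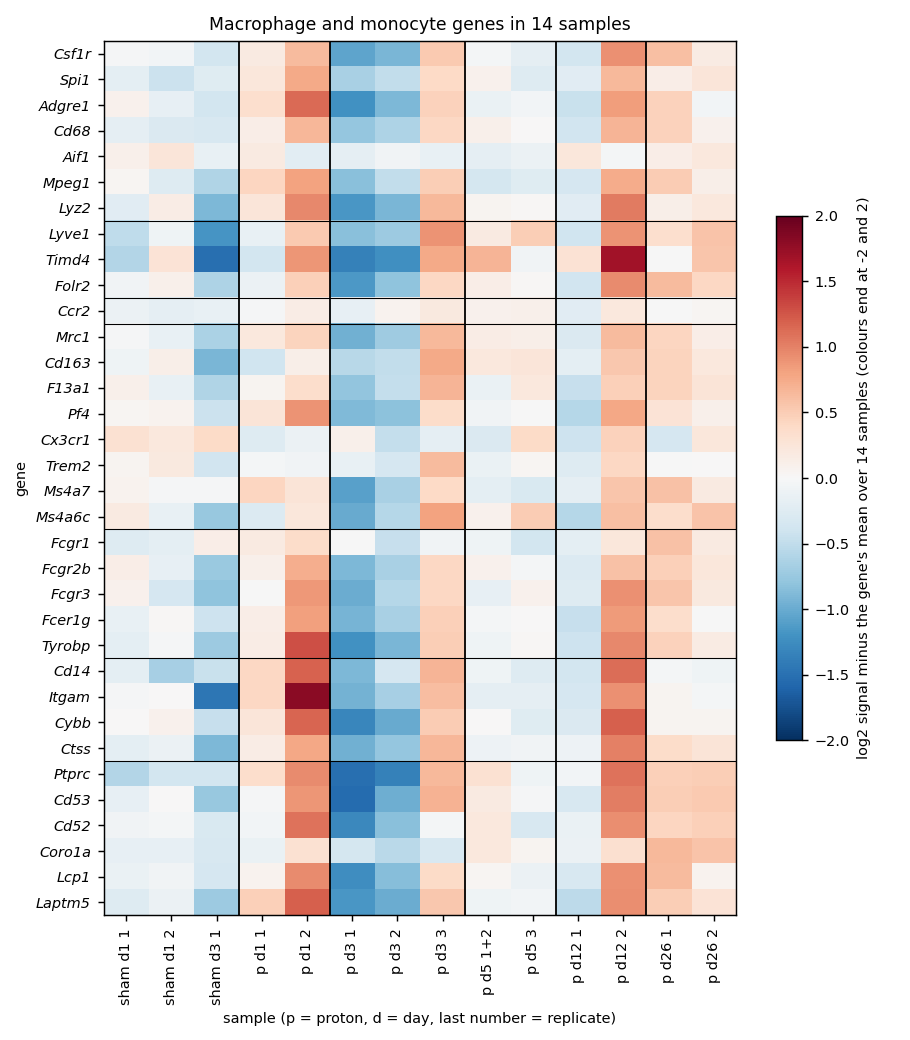
Log2 signal of each of the 34 genes (rows, grouped by role) in the 14 samples (columns), shown as the difference from that gene's mean over the 14 samples; red is above the mean and blue below, and colours end at -2 and 2. Whole columns change colour together: day 12 replicate 2, day 1 replicate 2 and day 3 replicate 3 are red for most genes and day 3 replicates 1 and 2 are blue, while Aif1, Ccr2, Cx3cr1 and Fcgr1 follow this less.

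Genes of other non-muscle cells were read in the same samples. As the mean deviation over its genes, the macrophage list stood at 0.81 in day 12 replicate 2, where the endothelial list (10 genes) stood at 0.63 and the fibroblast list (9 genes) at 0.75. In day 3 replicate 3 the 3 lists stood at 0.47, 0.44 and 0.64. In day 3 replicates 1 and 2 the macrophage list stood at -0.93 and -0.73, the endothelial list at -0.46 and -0.75, and the fibroblast list at -0.47 and -0.66. These 3 lists were high and low in the same samples on days 3 and 12, and the cardiomyocyte list was not. The erythroid and mast cell lists, of 3 genes each, moved the same way there: they stood at 1.07 and 0.95 in day 12 replicate 2, at 1.01 and 0.77 in day 3 replicate 3, and between -1.18 and -0.78 in day 3 replicates 1 and 2. So did the B cell list (3 genes), at -0.88, -1.06 and 0.50 in the 3 day 3 samples and -0.14 and 0.90 on day 12. The neutrophil list (4 genes) did too, at -0.61, -0.25 and 0.61, and at -0.57 and 0.73. The T and NK cell list and the platelet list did not share this on day 3. They stood there at -0.29, -0.91 and -0.88, and at -0.16, -0.12 and -0.06. On day 12 they too were higher in replicate 2, at -0.58 and 0.48, and at -0.16 and 0.30. The part of these cells in the macrophage values was not tested.

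**Figure D2:**
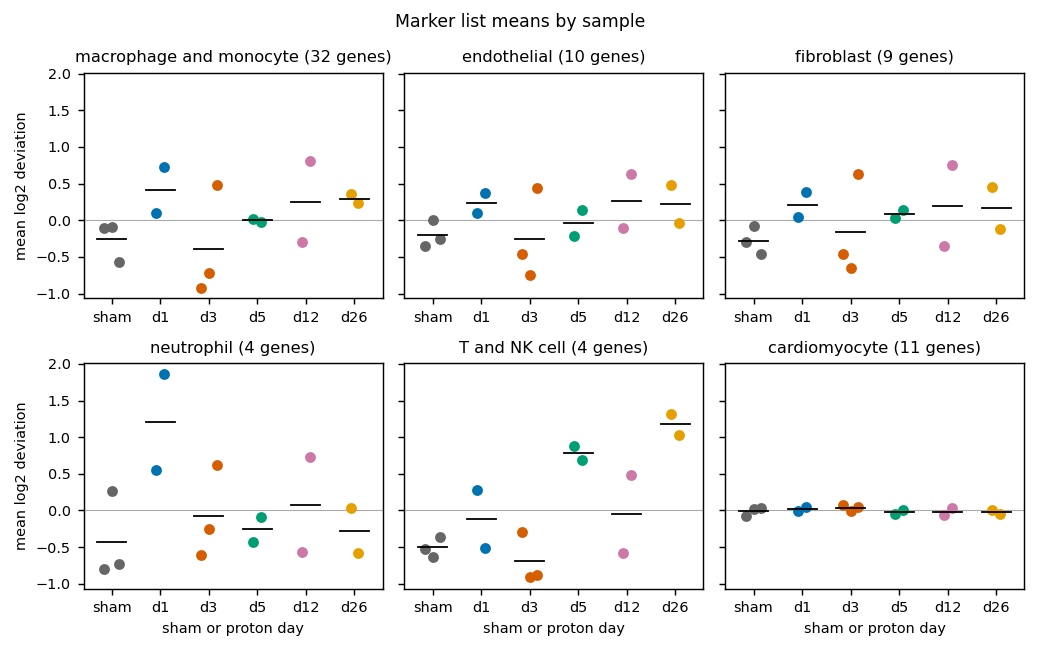
Mean log2 deviation of 6 marker lists in each sample (points; bars are group means), by sham and proton day; each panel uses only genes above the signal filter. The macrophage, endothelial and fibroblast panels share their high and low samples on days 3 and 12, the cardiomyocyte panel stays between -0.07 and 0.07, the neutrophil panel is highest in 1 day 1 sample (1.87), and the T and NK panel is highest on day 26 (1.32 and 1.03).

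Against sham, day 1 gave the largest median of the 5 days for the macrophage genes: the median log2 difference over the 32 genes was 0.69, against -0.008 over all genes tested, and 30 of the 32 were above 0, where 48.3% of all genes were. Both day 1 samples were above all 3 sham samples for 20 of the 32 genes; 14.2% of all genes were placed in this way. At an unadjusted p of 0.05, 5 genes were higher (Spi1, Mpeg1, Cd14, Itgam and Laptm5) and 0 lower, against 2.55% and 2.96% of all genes. No gene of the 12102 passed the adjusted threshold (0% called), and the smallest adjusted p of a macrophage gene was 0.754. Without replicate 2 of day 1 the median was 0.35, and without replicate 1 it was 1.06. Against the day 1 sham alone it was 0.53, with 3 genes higher at an unadjusted p under 0.05, against 1.62% of all genes. The count also changed with a sample that lends only its spread to the test: it was 17 without replicate 3 of day 3, against 4.44% of all genes. Without replicate 2 of the day 1 sham it was 2, against 4.73% of all genes. The 3 erythroid genes above the filter, Alas2, Bpgm and Slc4a1, had a median difference of 1.40 on day 1. Their mean deviations were 0.84 and 2.48 there, the higher in replicate 2, against -0.42, 1.27 and -0.16 in sham, and their part in the day 1 differences was not tested.

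On day 3 the median difference of the macrophage genes was -0.13, against 0.004 for all genes, with 8 genes above 0 and 24 below, where 51% of all genes were above 0. None was above all sham samples (8% of all genes were), and 2, Cx3cr1 and Coro1a, were below all of them (4.39% of all genes). At an unadjusted p of 0.05 no gene was higher or lower, against 6.29% and 2.57% of all genes. At the adjusted threshold 0 macrophage genes and 0.00826% of all genes were called. This day turns on replicate 3: without it all 32 genes were below sham, with a median of -0.56, and 19 were below every sham sample against 11.4% of all genes. At an unadjusted p of 0.05, 11 genes were then lower, against 2.97% of all genes. Without replicate 1 the median was 0.15.

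On day 5 the median difference was 0.28, against 0.006 for all genes, and 27 of the 32 genes were above 0, where 51.2% of all genes were. Both samples were above all sham for 8 genes (Cd68, Lyve1, Mrc1, Cd163, Ctss, Ptprc, Coro1a and Laptm5), or 25% of the 32, against 16.8% of all genes. Ms4a7, a membrane protein of mature macrophages, was below all sham samples, where 15.8% of all genes were. At the adjusted threshold 0 macrophage genes and 0.0496% of all genes were called; at an unadjusted p of 0.05 none was higher or lower, against 4.21% and 4.78% of all genes. Against the day 1 sham alone the median was 0.07. Without replicate 3 of day 5 it was 0.31. The count above all sham samples was 15 without replicate 2 of the day 1 sham, against 28% of all genes. It was 14 without replicate 1 of that sham, against 20.6% of all genes.

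Day 12 had a median of 0.47, against 0.01 for all genes, and 31 of the 32 genes were above 0, where 51.9% of all genes were. Because its 2 samples lay so far apart, only Timd4, Ctss, Ptprc and Coro1a were above sham in both, 4 of 32 or 12.5%, against 9.92% of all genes. None was below all sham samples in both (11.2% of all genes). Timd4 alone was higher at an unadjusted p under 0.05 and none was lower, against 3.39% and 4.62% of all genes, and 0 genes of any kind passed the adjusted threshold (0% called). The direction rests on 1 sample: without replicate 2 the median was -0.08 with 12 genes above 0 and 20 below, where 49.3% of all genes were above 0. Without replicate 1 it was 1.05 with all 32 genes above 0, where 51.4% of all genes were. Without replicate 3 of day 3, whose spread enters the fit, 5 genes were higher at an unadjusted p under 0.05, against 5.9% of all genes.

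On day 26 the median was 0.56, against 0.052 for all genes, and 31 of the 32 genes were above 0, where 58.8% of all genes were. For 24 of the 32 genes, or 75%, both samples lay above all sham samples, against 24.7% of all genes. None was below all sham samples (14.1% of all genes). Fcgr1 and Coro1a were higher at an unadjusted p under 0.05 and none was lower, against 8.6% and 5.67% of all genes. At the adjusted threshold 0 macrophage genes were called, against 0.0413% of all genes (0.0248% higher and 0.0165% lower), and the smallest adjusted p was that of Coro1a, 0.0826. Unlike days 3 and 12, this day kept a median above 0 without either of its samples, 0.48 and 0.69. Without replicate 3 of day 3, whose spread enters the fit, 10 genes were higher at an unadjusted p under 0.05, against 11.3% of all genes. The rise over sham was not particular to the macrophage genes. On days 1, 12 and 26 all 10 endothelial genes were above 0, with medians of 0.44, 0.40 and 0.47. Of the 9 fibroblast genes 9, 8 and 8 were above 0, with medians of 0.37, 0.53 and 0.49. Not every list rose: the 3 erythroid genes were all below 0 on day 26, with a median of -1.79.

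**Figure D3:**
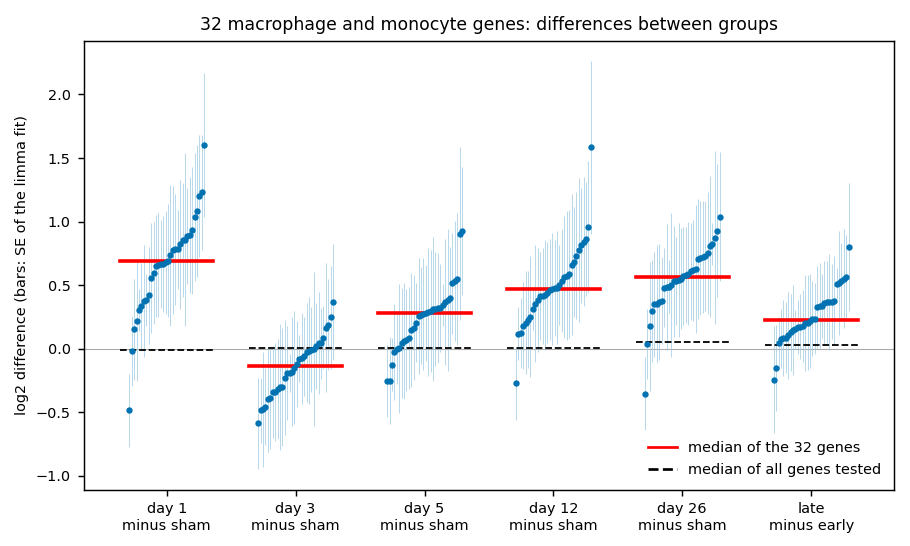
Log2 difference of each of the 32 genes tested (points, sorted within each comparison; bars are the SE of the limma fit) for the 5 proton days against the same 3 sham samples and for late (days 12 and 26) minus early (days 1 and 3); red lines are the medians of the 32 genes and dashed lines those of all genes tested. The red lines lie at 0.69, -0.13, 0.28, 0.47, 0.56 and 0.23, and most bars are as long as the shift they belong to.

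Late (days 12 and 26) minus early (days 1 and 3) proton samples gave a median of 0.23, against 0.026 for all genes, with 30 of the 32 genes above 0, where 56.8% of all genes were. No macrophage gene separated the 4 late from the 5 early samples, where 1.48% of all genes had every late sample above every early one and 2.59% the reverse. Coro1a was higher at an unadjusted p under 0.05 and none was lower, against 6.86% and 6.38% of all genes, and 0 macrophage genes and 0.00826% of all genes passed the adjusted threshold. The median moved with single samples: it was 0.02 without replicate 2 of day 12 and 0.53, with all 32 genes above 0, without replicate 1. It was 0.48 without replicate 3 of day 3, with 14 genes then higher at an unadjusted p under 0.05, against 8.97% of all genes. It was 0.40 without replicate 2 of day 1, and 0.11, 0.14 and 0.13 without replicate 1 of day 1 and replicates 1 and 2 of day 3. The joint limma test of any proton day against sham called 0 macrophage genes and 0.0248% of all genes. At an unadjusted p of 0.05 it gave Coro1a (9.54% of all genes). The test among proton days, which does not use sham, called 0 genes (0%), and gave Coro1a and Cd52 at an unadjusted p of 0.05 (8.43% of all genes).

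Of the other genes of the lineage, Adgre1 (F4/80, the classical surface antigen of mouse macrophages) had sham signals of 6.54, 6.29 and 6.09. It read 6.80 and 7.60 on day 1, 5.25, 5.57 and 6.92 on day 3, 6.33 and 6.41 on day 5, 6.02 and 7.30 on day 12, and 6.92 and 6.41 on day 26. Both day 1 samples were above sham, and the highest and lowest of its 14 values differed 5.11-fold. Spi1, the PU.1 factor, had sham signals of 5.51, 5.29 and 5.47, and read 5.94 and 6.46 on day 1, 5.05, 5.22 and 6.11 on day 3, 5.80 and 5.45 on day 5, 5.49 and 6.35 on day 12, and 5.84 and 5.96 on day 26. Its sham samples lay close together and days 1 and 26 were above all of them. The day 1 difference was 0.78 ± 0.311 (SE), 1.72-fold, with an unadjusted p of 0.0273 and an adjusted p of 0.754 in limma.

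Cd68, a lysosomal glycoprotein, had sham signals of 6.97, 6.85 and 6.82, and read 7.27 and 7.81 on day 1, 6.37, 6.52 and 7.56 on day 3, 7.24 and 7.15 on day 5, 6.76 and 7.82 on day 12, and 7.60 and 7.22 on day 26. Days 1, 5 and 26 were above all sham samples. Lyz2, lysozyme, read 9.63, 10.00 and 8.95 in sham, 10.10 and 10.82 on day 1, 8.69, 8.94 and 10.50 on day 3, 9.91 and 9.87 on day 5, 9.62 and 10.89 on day 12, and 9.96 and 10.06 on day 26. Only day 1 was above all sham samples; neutrophils also make lysozyme, and a near-identical gene, Lyz1, could share its probes. Mpeg1, which encodes the pore-forming protein perforin-2, read 5.61, 5.32 and 4.97 in sham, 6.00 and 6.38 on day 1, 4.74, 5.08 and 6.06 on day 3, 5.23 and 5.33 on day 5, 5.23 and 6.32 on day 12, and 6.07 and 5.69 on day 26. Days 1 and 26 were above all sham samples, and the day 1 difference was 0.89 ± 0.376 (SE), with an unadjusted p of 0.0360 and an adjusted p of 0.754 in limma. Aif1, below the filter, stayed between 4.26 and 4.72 in the 14 samples, a 1.38-fold range.

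The resident genes came next. Lyve1, a hyaluronan receptor that also marks lymphatic endothelium, read 7.60, 8.02 and 6.91 in sham, 7.95 and 8.62 on day 1, 7.26, 7.38 and 9.00 on day 3, 8.28 and 8.59 on day 5, 7.70 and 9.00 on day 12, and 8.43 and 8.66 on day 26. Days 5 and 26 were above all sham samples, and the differences were 0.93 ± 0.506 (SE, adjusted p 0.637) and 1.04 ± 0.506 (adjusted p 0.377) in limma. The 4 lymphatic endothelial genes above the filter (Prox1, Flt4, Pdpn and Reln) had a mean deviation of 0.04 and 0.09 on day 5, and of 0.14 and -0.05 on day 26, against -0.13, 0.06 and -0.35 in sham. They did not move together on day 26: 3 of the 4 were above sham, Flt4 by 0.40, while Prox1 differed by -0.24. The part of lymphatic cells in the Lyve1 values was not tested.

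Timd4, a receptor for phosphatidylserine on dying cells, had the widest residual spread of the 32 genes. It read 5.64, 6.51 and 4.73 in sham, 5.86 and 7.11 on day 1, 4.88, 5.01 and 6.98 on day 3, 6.91 and 6.15 on day 5, 6.51 and 7.91 on day 12, and 6.22 and 6.78 on day 26. The sham samples alone span much of that range, and the lower day 12 sample is level with the highest of them. The day 12 difference was 1.58 ± 0.679, 3.00-fold, with an unadjusted p of 0.0378 and an adjusted p of 0.611 in limma. Folr2 read 6.61, 6.78 and 6.06 in sham, 6.56 and 7.16 on day 1, 5.53, 5.88 and 7.09 on day 3, 6.81 and 6.71 on day 5, 6.29 and 7.62 on day 12, and 7.31 and 7.10 on day 26. Only day 26 was above all sham samples, by 0.72 ± 0.440 (SE, adjusted p 0.459).

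Ccr2, the receptor by which monocytes leave the bone marrow and enter tissue, was nearly flat and below the filter. It read 4.53, 4.46 and 4.49 in sham, 4.62 and 4.79 on day 1, 4.47, 4.71 and 4.83 on day 3, 4.72 and 4.74 on day 5, 4.42 and 4.85 on day 12, and 4.63 and 4.68 on day 26. The highest and lowest values differed 1.35-fold, against 4.24-fold for Lyve1 and 9.07-fold for Timd4. At so low a signal a probe set may hardly respond, so a flat Ccr2 does not show a steady number of recruited cells. Days 1, 5 and 26 were above the closely placed sham samples, by 0.21, 0.24 and 0.16.

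**Figure D4:**
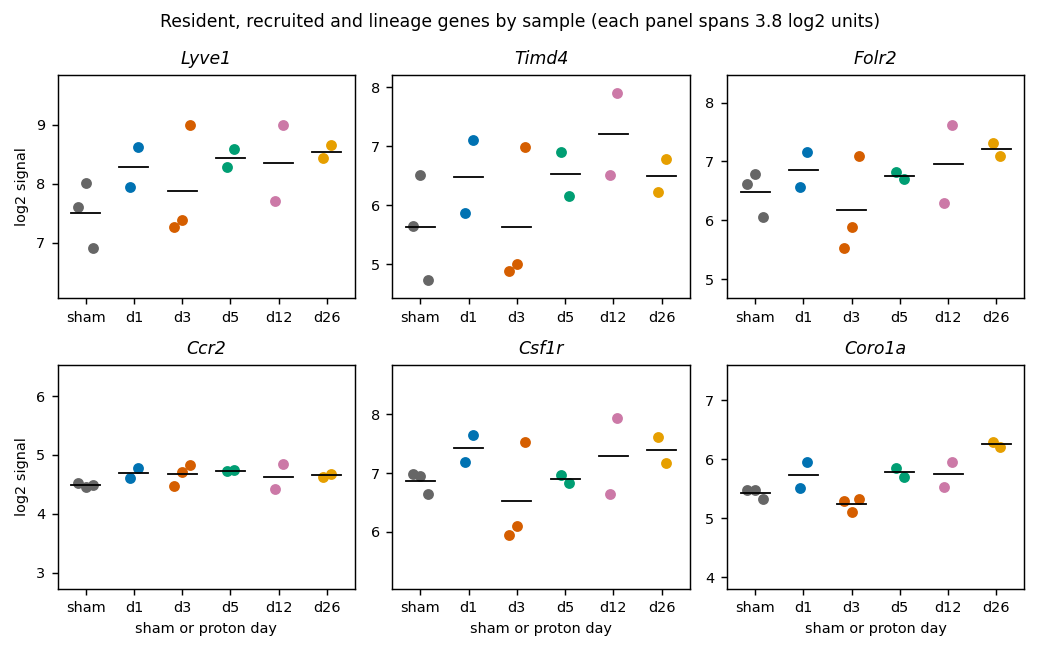
Log2 signal of Lyve1, Timd4, Folr2, Ccr2, Csf1r and Coro1a in each sample (points; bars are group means) by sham and proton day; every panel spans the same number of log2 units on its own level. Ccr2 is flat, the resident genes and Csf1r scatter between replicates on days 3 and 12, and Coro1a is highest on day 26 (6.30 and 6.21 against 5.33 to 5.48 in sham), with its replicates apart on days 1 and 12.

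The resident genes were set against Ccr2 within each sample, as the difference of the 2 log2 signals, and groups were compared by an exact 2-sided permutation test. For Lyve1 the gap between proton and sham samples was 0.57, with an SD of 0.511 among 11 proton samples and 0.569 among 3 sham samples (exact permutation p = 0.121, 0.302 adjusted over the 6 tests). For Timd4 this gap was 0.58 (exact permutation p = 0.297) and for Folr2 it was 0.07 (exact permutation p = 0.871). Late against early proton samples, 4 against 5, gave 0.45 for Lyve1 (exact permutation p = 0.270), 0.93 for Timd4 (exact permutation p = 0.151) and 0.67 for Folr2 (exact permutation p = 0.111, 0.302 adjusted). None of the 6 passed the threshold, in comparisons of 364 and 126 possible splits. With 1 sample left out, the gap between proton and sham ran from 0.27 to 0.84 for Lyve1, from 0.14 to 1.04 for Timd4 and from -0.14 to 0.23 for Folr2. In each the lowest was without the day 3 sham sample and the highest without replicate 2 of the day 1 sham. Between late and early samples it ran from 0.27 to 0.65, from 0.64 to 1.18 and from 0.50 to 0.86, the Lyve1 gap being lowest without replicate 2 of day 3. As Ccr2 was below the filter and hardly moved, these gaps repeat the values of the resident genes and do not compare resident with recruited cells.

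Among the other receptors and products of tissue macrophages, Mrc1, the mannose receptor CD206, had sham signals of 6.59, 6.46 and 5.97. It read 6.82 and 7.06 on day 1, 5.64, 5.90 and 7.25 on day 3, 6.76 and 6.73 on day 5, 6.33 and 7.24 on day 12, and 7.04 and 6.74 on day 26. Days 1, 5 and 26 were above all sham samples, with differences of 0.60, 0.40 and 0.55 against an SE of 0.399. Cd163, the scavenger receptor for haemoglobin bound to haptoglobin, read 5.35, 5.54 and 4.52 in sham, 5.04 and 5.54 on day 1, 4.87, 4.93 and 6.18 on day 3, 5.64 and 5.67 on day 5, 5.24 and 5.97 on day 12, and 5.87 and 5.64 on day 26. It was above sham on days 5 and 26, by 0.52 ± 0.397 and 0.62 ± 0.397, with adjusted p of 0.746 and 0.477 in limma.

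Cx3cr1, the fractalkine receptor of patrolling monocytes and some resident macrophages, lay lower after protons than in sham by its group means. It read 5.41, 5.31 and 5.49 in sham, 4.84 and 5.00 on day 1, 5.21, 4.63 and 4.93 on day 3, 4.82 and 5.49 on day 5, 4.69 and 5.57 on day 12, and 4.77 and 5.34 on day 26. Days 1 and 3 were below all sham samples, by -0.48 ± 0.286 and -0.48 ± 0.256 on the log2 scale (adjusted p 0.754 and 0.612 in limma). Its differences from sham were below 0 on all 5 days, and on later days 1 sample of each pair was at sham level. Its mean signal, 5.09, was close to the filter. Trem2, a lipid-sensing receptor, stayed within 0.12 of sham on each day by its group means. Pf4, platelet factor 4, which tissue macrophages also make, differed by 0.68 ± 0.403 on day 1; the 3 platelet genes above the filter (Ppbp, Gp9 and Treml1) had mean deviations of 0.59 and 0.54 there against 0.37, 0.63 and -0.61 in sham. F13a1, the coagulation factor XIII A subunit, and Ms4a6c, of the membrane-spanning 4A family, were above all sham on day 26, by 0.57 ± 0.382 and 0.71 ± 0.473.

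The Fc receptors bind antibody, and Fcer1g and Tyrobp are adaptors through which surface receptors of leukocytes signal. Fcgr1 had sham signals of 5.11, 5.18 and 5.51, and read 5.55 and 5.74 on day 1, 5.36, 4.90 and 5.30 on day 3, 5.28 and 5.00 on day 5, 5.18 and 5.59 on day 12, and 5.95 and 5.56 on day 26. It did not share the swings of day 3, and days 1 and 26 cleared the highest sham sample. The day 26 difference was 0.49 ± 0.206 (SE), 1.40-fold, with an unadjusted p of 0.0353 and an adjusted p of 0.307 in limma.

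Fcgr3, the low-affinity activating receptor, read 6.84, 6.42 and 5.96 in sham, 6.75 and 7.62 on day 1, 5.76, 6.19 and 7.18 on day 3, 6.60 and 6.84 on day 5, 6.49 and 7.68 on day 12, and 7.31 and 6.96 on day 26. Fcgr2b, the inhibitory receptor, read 6.53, 6.23 and 5.65 in sham, 6.49 and 7.12 on day 1, 5.49, 5.75 and 6.81 on day 3, 6.49 and 6.35 on day 5, 6.13 and 6.98 on day 12, and 6.87 and 6.62 on day 26. The activating and inhibitory receptors moved side by side, 0.73 and 0.61 above sham on day 26, where both cleared all sham samples; the 2 genes are close in sequence, and probes may not keep them apart. Fcer1g and Tyrobp were above all sham samples on day 1, by 0.66 ± 0.410 and 1.03 ± 0.504, and Tyrobp on day 26 too, by 0.63 ± 0.504. All 5 genes of this group were above 0 on days 1, 12 and 26 and below 0 on day 3.

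Innate sensing and adhesion genes had the largest differences of day 1. Itgam, the integrin CD11b of monocytes, macrophages and neutrophils, read 5.72, 5.75 and 4.29 in sham, 6.16 and 7.55 on day 1, 4.81, 5.08 and 6.37 on day 3, 5.56 and 5.57 on day 5, 5.41 and 6.65 on day 12, and 5.80 and 5.71 on day 26. Day 1 was above sham in both samples, but 1 sham sample, that of day 3, was far below the other 2. The difference was 1.60 ± 0.567 (SE), 3.04-fold, with an unadjusted p of 0.0152 and an adjusted p of 0.754 in limma. Cd14, the co-receptor for bacterial lipopolysaccharide, read 5.34, 4.86 and 5.08 in sham, 5.94 and 6.71 on day 1, 4.63, 5.19 and 6.21 on day 3, 5.44 and 5.26 on day 5, 5.16 and 6.65 on day 12, and 5.49 and 5.44 on day 26. Both day 1 samples were above sham, by 1.23 ± 0.453 on average (2.35-fold, unadjusted p 0.0185, adjusted p 0.754 in limma).

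Neutrophils also carry Itgam and Cd14. The 4 neutrophil genes above the filter (S100a9, Retnlg, Ltf and Csf3r, of 10 on the array) had mean deviations of 0.55 and 1.87 on day 1, against -0.80, 0.26 and -0.73 in sham, and were highest in day 1 replicate 2, as Itgam was. Their part in the day 1 differences was not tested. Cybb, the catalytic subunit of the phagocyte oxidase, and Ctss, the lysosomal protease cathepsin S, were above all sham on day 1 by 0.82 ± 0.507 and 0.86 ± 0.448. Ctss read 6.13, 6.22 and 5.44 in sham, 6.47 and 7.10 on day 1, 5.36, 5.55 and 7.00 on day 3, 6.23 and 6.26 on day 5, 6.23 and 7.35 on day 12, and 6.70 and 6.59 on day 26. It was above all sham on days 5, 12 and 26 as well, though barely so in both day 5 samples and in the lower day 12 sample, by 0.32, 0.86 and 0.71, and its smallest adjusted p over these days was 0.468 in limma.

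The last group is shared with other leukocytes. Ptprc, the pan-leukocyte phosphatase CD45, had closely placed sham signals of 5.36, 5.58 and 5.57. It read 6.29 and 6.88 on day 1, 4.44, 4.59 and 6.58 on day 3, 6.25 and 5.85 on day 5, 5.89 and 7.03 on day 12, and 6.43 and 6.44 on day 26. It was above all sham samples on days 1, 5, 12 and 26, and on day 3 its samples lay on both sides, from 4.44 to 6.58. The differences on those 4 days were 1.08, 0.55, 0.96 and 0.93, each ± 0.521 (SE), with adjusted p from 0.428 to 0.793 in limma. The day 26 call depends on the spread used. Fitted in limma on the day 26 and sham samples alone, Ptprc had an adjusted p of 0.0338. Over its 26 alternatives the adjusted p ran up to 0.764. Calls over all genes on day 26 ran from 0 to 309 across settings. Cd53, a leukocyte tetraspanin, Cd52, a small surface glycoprotein of lymphocytes and monocytes, Lcp1, the actin bundler L-plastin, and Laptm5, a lysosomal membrane protein, were also above all sham on day 26, by 0.81, 0.59, 0.54 and 0.75. Laptm5 read 7.85, 7.99 and 7.38 in sham, 8.59 and 9.30 on day 1, 6.93, 7.12 and 8.64 on day 3, 8.03 and 8.05 on day 5, 7.59 and 9.03 on day 12, and 8.60 and 8.38 on day 26. Its day 1 samples were well above sham, by 1.20 ± 0.481 (SE), with an unadjusted p of 0.0279 and an adjusted p of 0.754 in limma. Cd52 read 5.48, 5.50 and 5.24 in sham, 5.49 and 6.63 on day 1, 4.26, 4.71 and 5.50 on day 3, 5.76 and 5.22 on day 5, 5.42 and 6.47 on day 12, and 5.97 and 6.03 on day 26. It was the lowest of the 32 genes on day 3 by difference, -0.59 ± 0.361 on the log2 scale, with replicates 1 and 2 below sham and replicate 3 level with it. On day 3 all 6 genes of this group had differences below 0.

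Coro1a had the smallest residual SD of the 32 genes. It read 5.48, 5.48 and 5.33 in sham, 5.52 and 5.96 on day 1, 5.29, 5.11 and 5.32 on day 3, 5.85 and 5.70 on day 5, 5.53 and 5.96 on day 12, and 6.30 and 6.21 on day 26. Its replicates were close on day 26 and in sham, but on days 1 and 12 replicate 2 was well above replicate 1. The groups of days 1, 5, 12 and 26 lay above all sham samples, on days 1 and 12 only just so in replicate 1, and day 3 lay just below them. The day 26 difference was 0.83 ± 0.165 (SE), 1.77-fold, with an adjusted p of 0.0826 in limma; late minus early was 0.51 ± 0.123, with an adjusted p of 0.153. Across settings, the day 26 calls over all genes ran from 0 to 309. Coro1a passed the threshold at day 26 with all 15 arrays kept separate (0.0417), which counts the 2 nearly identical day 5 arrays as separate samples. It also passed with array weights (0.0209) and with only the groups compared (0.0413). Over its 26 alternatives the adjusted p ran from 0.0209 to 0.531, the highest without replicate 1 of day 26.

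T cells make Coro1a in quantity, and the T cell genes above the filter were highest on the same day. The 4 T and NK cell genes above the filter (Cd3e, Cd4, Cd8a and Cd8b1, of 9 on the array) had mean deviations of 1.32 and 1.03 on day 26 and 0.88 and 0.69 on day 5, against -0.52, -0.63 and -0.36 in sham and -0.29, -0.91 and -0.88 on day 3. Cd8b1 differed from sham by 3.10 ± 0.549 on day 26 and Cd8a by 1.67 ± 0.292, with an adjusted p of 0.0528 for both in limma. In sham, Cd8a read 4.6, 4.5 and 4.7 and Cd8b1 4.4, 4.1 and 4.5, under the filter of 5.00. Both passed it only through samples in which they were higher, so the filter favours a list that is high on such days. Cd3d, Cd3g, Nkg7, Klrb1c and Ncr1 were below the filter and are not in the list means. The part of these cells in the Coro1a and Ptprc values was not tested.

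Further macrophage genes were taken from 4 lists: growth and recruitment signals, other receptors, transcription factors, and other products. Of their 64 genes, 57 were on the array and 42 passed the filter. None was called in any of the 6 comparisons, where at most 0.0496% of all genes were. Above 0 were 36 of the 42 on day 1, 23 on day 3, 34 on day 5, 38 on day 12 and 40 on day 26. Of all genes, 48.3%, 51%, 51.2%, 51.9% and 58.8% were above 0 on these days. The medians of the 42 genes were 0.39, 0.04, 0.20, 0.41 and 0.38, against -0.008, 0.004, 0.006, 0.01 and 0.052 for all genes. Day 3 thus lay just above 0, where the 32 genes lay below. Day 12 was the highest, with its replicates apart in all 4 lists. Their mean deviations in replicates 1 and 2 were -0.09 and 0.60 (signals), -0.12 and 0.59 (receptors), -0.11 and 0.27 (transcription factors), and -0.22 and 0.80 (products). The complement subunits C1qa, C1qb and C1qc, which cardiac macrophages express, were 0.57, 0.57 and 0.67 above sham on day 26 and -0.30, -0.21 and -0.28 from it on day 3.

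Among ligands, Ccl6 and Ccl9, chemokines of myeloid cells, were 0.86 and 1.11 above sham on day 26, and Ccl7, which draws monocytes through Ccr2, was 1.08 ± 0.445 above it on day 1. Csf1, the ligand of Csf1r, was chosen here after its values were seen. It read 6.86, 7.03 and 7.21 in sham, 7.67 and 7.47 on day 5, and 7.61 and 7.62 on day 26. Both days cleared all sham samples, as 16.8% of all genes did on day 5 and 24.7% on day 26. Its difference on day 26 was 0.58 ± 0.120 (SE), the smallest adjusted p of the 42 genes, 0.0924 in limma, and on day 5 it was 0.53 with an adjusted p of 0.277. Tlr4, the lipopolysaccharide receptor that works with Cd14, was also chosen after its values were seen: its 11 proton samples, from 6.61 to 7.04, were all above the 3 sham samples, 6.34, 6.53 and 6.39. The share of all genes with every proton sample above sham was not counted. The Tlr4 differences ran from 0.40 to 0.50 over the 5 days, with adjusted p from 0.195 to 0.754 in limma.

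Vsig4, a complement receptor of resident macrophages, was 1.60 ± 0.766 above sham on day 12 and followed the block, from 7.43 to 8.80 between the 2 samples of that day. Retnla, a product of alternatively activated macrophages, was 1.25 ± 0.670 above sham on day 26. Runx1 had the largest difference of the transcription factors, 0.81 ± 0.280 on day 26, with an adjusted p of 0.248 in limma. The products of strongly activated macrophages Nos2, Arg1 and Il6 were below the filter, with means of 4.66, 3.40 and 3.08.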

How the data were processed

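Total RNA from the heart muscle cells was labelled with biotin and read on 15 Affymetrix arrays. The deposited values are log2 signals, 1 per probe set, which the authors made with MAS5, per the submitters' processing notes; further steps are not given in the sources used here, and arrays give no read depth, so their number limits the precision. Of 34760 probe sets 21640 named 1 gene, 1321 several and 11799 none in the annotation given; for each of 19937 genes the probe set with the highest mean over the 15 arrays was kept, the rule by which all genes were named. The 34 genes and all lists were chosen with earlier results of these data known. Genes whose mean exceeded 5.00, the median of all probe-set means, were tested (12102) with limma 3.58.1 in R 4.3.3 (lmFit, eBayes with a variance trend, 8 residual degrees of freedom), in 1 fit of 6 groups, with Benjamini-Hochberg adjustment over all genes tested and a threshold of 0.05. Differences between 2 genes within a sample were tested by exact permutation. The fit was tested on simulated data. Every member is named; values in every sample go to the lineage, resident, recruited and Fc receptor genes and to those with the smallest p, and pathway genes are named by largest difference unless stated. Alternatives changed normalization, filter, probe set, variance model, samples in the fit, sham, pairing and replicates left out. Promoter windows were searched with Python 3.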

Additional observations from a re-analysis of the deposited data

Results flagged for a closer look

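For Coro1a and Ms4a7, every sample of 1 proton day lay above all 3 sham samples while every sample of another lay below them. The share of all genes placed in both ways was not counted. Taken 1 day at a time, 14.2%, 16.8%, 9.92% and 24.7% of all genes lay above all sham samples on days 1, 5, 12 and 26. Below them lay 4.39% on day 3 and 15.8% on day 5. The differences between those days were not tested pair by pair. Coro1a was below sham on day 3 and above it on the other days, so its difference from sham on day 3 less that on day 1 was -0.50, and on days 5, 12 and 26 less that on day 3 it was 0.54, 0.51 and 1.02. The joint limma test among proton days gave Coro1a an adjusted p of 0.260. Ms4a7 was below sham on day 5 (5.46 and 5.35 against 5.72, 5.62 and 5.63) and above it on day 1 (6.08 and 5.90) and day 26 (6.24 and 5.84). Its day 5 difference less its day 1 difference was -0.59, and its day 26 difference less its day 5 difference was 0.63. On day 3, Ms4a7 read 4.57, 5.00 and 6.04, on both sides of sham. The groups hold 2 or 3 samples, too few to test a single sample as an outlier.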

How the results depend on the processing

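Calls were 0 in all 8 comparisons under every alternative run except on day 26, where array weights gave 1 call, only the groups compared gave 2 calls, and all 15 arrays as separate samples gave 1. The shares of all genes called in those same settings are not given here, so these counts have no background beside them. Over all genes the calls of day 26 ran from 0 to 309 across settings, those of day 5 from 0 to 47, of day 3 from 0 to 5, of days 1 and 12 from 0 to 1 and 2, of late minus early from 0 to 11, and of the joint tests from 0 to 55 and from 0 to 20. Medians of the macrophage genes kept their sign under other normalizations, filters and variance models; that of day 12 ran from -0.0793 to 1.05 when 1 replicate was left out. The Folr2 gap to Ccr2 between proton and sham samples was -0.14 with the sham of day 1 only and ran from -0.14 to 0.23 with 1 replicate left out. The cause was not tested. Equal array medians lowered the day 26 median of all genes by -0.105 and left 30 of the 32 genes above 0. The check of pairing by replicate number found no shared deviations: of 26 pairs of samples with equal numbers, the deviations of 10 correlated above 0.1, with a median of -0.083. With the replicate block, without the sham of day 3, the medians of days 3 and 5 were -0.56 and -0.20, and it called 0 macrophage genes. A fit of only the groups compared was not run for any proton day against sham, which uses all groups. With 2 or 3 samples a group and a residual SD of 0.573, only large shifts could be called.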
